A study of Mus musculus with 4 samples.

Results

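The 8 genes described here encode parts of the secretory apparatus of the exocrine pancreas, 5 of the zymogen granule (*Sycn*, *Zg16*, *Gp2*, *Cuzd1* and *Rnase1*) and 3 receptors for secretagogues (*Cckar*, *Chrm3* and *Sctr*). They were chosen by name for these known roles, and all 8 were found among the 32285 features measured once deprecated probes are set aside. The samples are 4 sections of formalin-fixed pancreas from *Pdx1-Cre* mice on a C57Bl/6 background, 2 labelled *Ehmt2* +/+ and 2 labelled *Ehmt2* fl/fl. *Ehmt2* encodes the histone H3 lysine 9 methyltransferase G9a, and *Pdx1-Cre* recombines the floxed alleles in the pancreatic epithelium and not in stromal or immune cells. All mice were 4 weeks old, were fasted for 12 h, received caerulein intraperitoneally at 50 μg/kg once an hour for 8 injections, and were collected 18 h after the first dose. No saline-treated section was analysed here, so every level below is a level in acute pancreatitis. The comparison between the labelled genotypes asks how these genes stand in injured pancreas with and without epithelial *Ehmt2*.

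Acinar cells store digestive proenzymes in zymogen granules at their apical pole and release them by exocytosis when cholecystokinin or acetylcholine raises cytosolic calcium. Cckar, the receptor for cholecystokinin, is also the receptor through which its analogue caerulein acts, and supramaximal caerulein blocks apical release and injures the acinar cell. Chrm3 is the muscarinic receptor of vagal stimulation, and Sctr, the secretin receptor, signals through cAMP and drives bicarbonate secretion by duct cells. Syncollin (*Sycn*) and the lectin Zg16 associate with the luminal side of the granule membrane, Gp2 is the major glycoprotein of that membrane, Cuzd1 is a CUB and zona pellucida-like domain protein of the granule, and Rnase1 is the pancreatic ribonuclease secreted with the enzymes.

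The assay counts unique molecular identifiers (UMIs), 1 for each captured probe molecule, in barcoded spots that each cover several cells. The sections held between 7000825 and 43803829 UMIs in 6183 to 10285 spots over tissue. The *Ehmt2* +/+-labelled replicate 1 stood apart, with a median of 6285 UMIs per spot against 759 to 932 in the others. A list of digestive enzyme genes, 33 of its 34 genes being in the files, took 62.4% and 50.4% of the UMIs in the *Ehmt2* +/+-labelled sections and 21.3% and 20.5% under the fl/fl label. Levels are given as CPM, counts scaled to 1000000 UMIs over tissue, and the sections are called by their labels throughout in view of the *Ehmt2* values given next. Section values follow the order *Ehmt2* +/+ replicates 1 and 2, then *Ehmt2* fl/fl replicates 1 and 2. *Ehmt2* itself measured 19.7, 3.79, 10.4 and 11.9 CPM. The second *Ehmt2* +/+ section thus had less *Ehmt2* than either of the other label. Outside *Ehmt2* +/+ replicate 1, however, these values lie below the 95th percentile of olfactory receptor genes, a background measure given with the receptors, so *Ehmt2* checks the labels of those sections in neither direction. Directions below are between labels. The Y-linked genes *Ddx3y*, *Eif2s3y*, *Kdm5d* and *Uty* measured at most 0.115 CPM in the *Ehmt2* +/+-labelled sections and 5.14 to 17.6 CPM under the fl/fl label, so sex and genotype cannot be told apart. The Y-linked values under the fl/fl label also lie below that 95th percentile, 17.1 and 21.9 CPM. Those under the +/+ label lie below the median of the olfactory genes, 0.251 and 5.52 CPM. The listed barcodes name slide positions, and 13898 of them occur in all 4 sections. In sums over a section, fewer acinar cells and less RNA per acinar cell cannot be told apart.

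All 5 granule genes were lower in both *Ehmt2* fl/fl-labelled sections than in either of the +/+ label. *Sycn* measured 11588, 14214, 5287 and 5173 CPM, with a mean of 12901 ± 1856 in the *Ehmt2* +/+-labelled sections and 5230 ± 80.1 under the fl/fl label (SD, n = 2), a ratio of 2.47. *Zg16* measured 10166, 9209, 2866 and 2561 CPM, a ratio of 3.57 between the group means. For both genes the 2 sections of a label lay closer to each other than to the other label. *Gp2* measured 5865, 2826, 1486 and 1645 CPM, a ratio of 2.78, and was the granule gene whose *Ehmt2* +/+ replicates lay farthest apart. *Cuzd1* measured 1747, 1839, 716 and 645 CPM, a ratio of 2.64. *Rnase1* had the largest ratio of the granule genes, 5.66, with 2446, 1643, 396 and 327 CPM. Together the 5 genes took 3.18% and 2.97% of the UMIs in the *Ehmt2* +/+-labelled sections and 1.07% and 1.03% under the fl/fl label. Among the 20066 genes tested, 0.767% had a CPM lower in both *Ehmt2* fl/fl-labelled sections, and 19 of the 28 enzyme genes tested were among the 154 that were lower. With 2 sections against 2, an exact two-sided permutation test cannot give a p under 0.333, which is the p of each of the 5 granule genes.

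**Figure D1:**
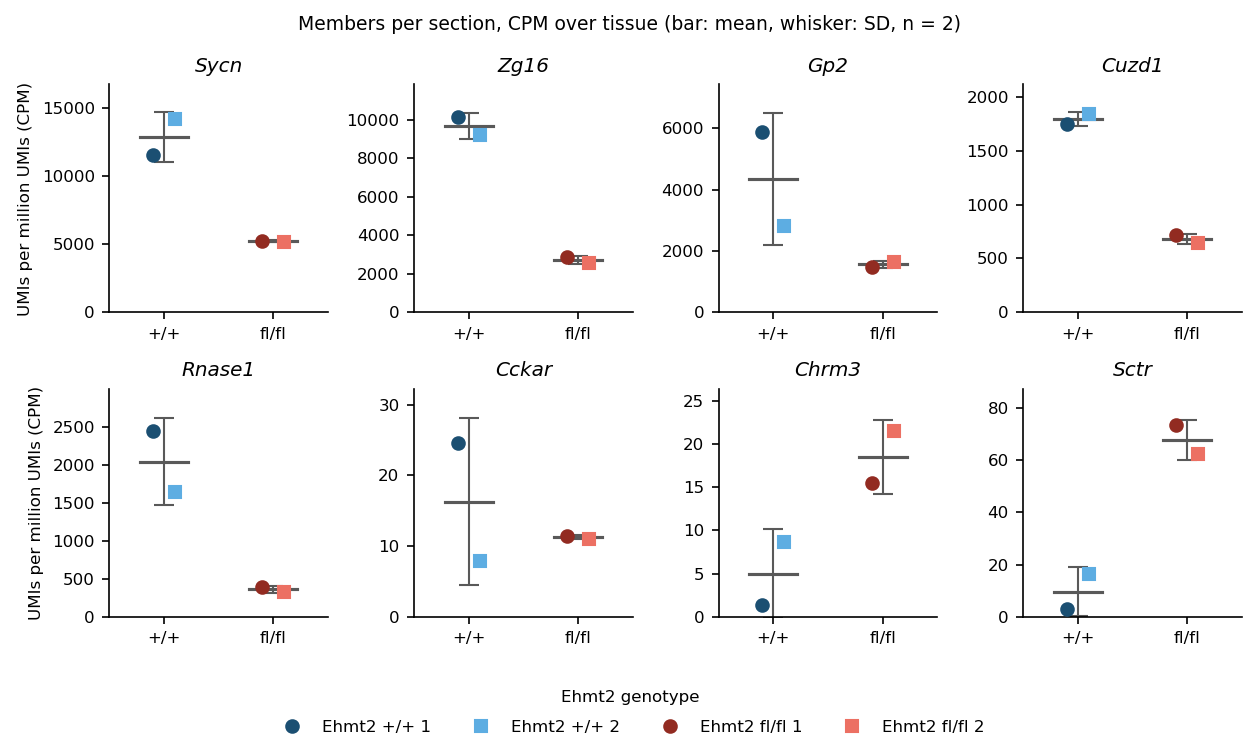
CPM over tissue of the 8 genes in each section by labelled *Ehmt2* genotype, on linear axes that start at 0, with the group mean as a bar and its SD as a whisker (n = 2; the lower whisker of *Chrm3* is cut at 0). The 5 granule genes lie lower in both *Ehmt2* fl/fl-labelled sections, *Chrm3* and *Sctr* lie higher, and the *Cckar* values of the labels overlap.

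edgeR's quasi-likelihood test called none of the 8 genes between the labels at an adjusted p of 0.05, with p-values adjusted over all 20066 genes by the Benjamini-Hochberg method, and it called 0.0947% of all genes. Its log2 fold changes are scaled by the trimmed mean of M values (TMM), which sets the bulk of genes level between sections, and their median over all genes was 0.25. A negative value means a lower level under the fl/fl label. *Rnase1* had a log2 fold change of −4.73 (SE 1.83, edgeR adjusted p = 0.758), and *Zg16* one of −3.96 (SE 2.24, adjusted p = 0.872). The estimates for *Gp2*, *Cuzd1* and *Sycn* were −3.83, −3.46 and −3.31, each with an edgeR adjusted p of 0.872. Without the deep *Ehmt2* +/+-labelled replicate 1 the estimates were smaller, −2.64 for *Zg16*, −1.75 for *Gp2*, −2.32 for *Cuzd1* and −2.33 for *Sycn*. The size also depended on the scaling. With library sizes in place of TMM all 4 sections gave −2.50 for *Rnase1*, −1.84 for *Zg16* and −1.47 for *Gp2*. *Cuzd1* then stood at −1.40 and *Sycn* at −1.30, while the median over all genes was 1.64. On the TMM scale 16% of all genes were lower in both *Ehmt2* fl/fl-labelled sections, against 5 of 5 granule genes. Of the 8 genes, 3 had an unadjusted edgeR p under 0.05, *Cckar*, *Rnase1* and *Cuzd1*, as had 5.01% of all genes. DESeq2 called all 5 granule genes, with adjusted p between 8.93e-06 for *Rnase1* and 0.00066 for *Sycn*, and gave no adjusted p for the receptors. It called 401 genes in all, 2% of the 20066. That share counts genes without an adjusted p as not called, so it is higher among those given one. How many lacked one was not counted. By DESeq2's unadjusted p, 6 of the 8 were under 0.05, the 5 granule genes and *Cckar*, against 12% of all genes. The edgeR estimates also turned on single sections. That of *Rnase1* was −3.06 without *Ehmt2* +/+ replicate 1 and −5.63 without *Ehmt2* +/+ replicate 2, fits that leave 1 section of the +/+ label.

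Of the 8 genes, 5 matched an entry in the RefSeq promoter table (GRCm38.p6), *Sycn*, *Gp2*, *Cuzd1*, *Rnase1* and *Chrm3*. The 250 bases before the annotated start are shown for the 4 granule genes among them, since these are the genes that lay lower together. *Sycn* lies on the plus strand of chromosome 7 (28540885 to 28542209), *Gp2* (119442537 to 119459285) and *Cuzd1* (131308554 to 131322292) on the minus strand of chromosome 7, and *Rnase1* on the minus strand of chromosome 14 (51144998 to 51146785). The annotation tags *Cuzd1* as overlapping another locus. *Zg16* lies on the minus strand of chromosome 7 (127050156 to 127087328), *Cckar* on that of chromosome 5 (53697776 to 53707705), *Chrm3* on that of chromosome 13 (9875486 to 10360847), and *Sctr* on the plus strand of chromosome 1 (120006894 to 120063536). The windows printed, those of *Sycn*, *Gp2*, *Cuzd1* and *Rnase1*, are chr7:28540635-28540884, chr7:119459273-119459522, chr7:131322293-131322542 and chr14:51146768-51147017, in the same order and each written 5′ to 3′ on the strand of its gene. They end at the RefSeq start, while the gene positions above are those of GENCODE. The windows of *Gp2* and *Rnase1* therefore overlap the first bases of these positions. Capitals mark letters of 3 motifs searched on both strands, the E-box CANNTG bound by bHLH factors such as Ptf1a, TGGGAA as the core bound by the Rbpj family, and AAGGNCA, a form of the Nr5a2 site.
Sycn: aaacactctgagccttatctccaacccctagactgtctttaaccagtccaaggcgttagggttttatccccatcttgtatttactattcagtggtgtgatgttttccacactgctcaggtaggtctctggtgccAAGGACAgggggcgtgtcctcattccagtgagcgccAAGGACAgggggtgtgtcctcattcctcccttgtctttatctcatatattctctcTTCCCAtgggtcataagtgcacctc
Gp2: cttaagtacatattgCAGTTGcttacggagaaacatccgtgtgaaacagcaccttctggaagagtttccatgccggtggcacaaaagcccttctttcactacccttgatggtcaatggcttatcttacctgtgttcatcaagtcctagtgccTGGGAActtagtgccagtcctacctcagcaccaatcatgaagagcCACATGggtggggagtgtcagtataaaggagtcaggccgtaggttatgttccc
Cuzd1: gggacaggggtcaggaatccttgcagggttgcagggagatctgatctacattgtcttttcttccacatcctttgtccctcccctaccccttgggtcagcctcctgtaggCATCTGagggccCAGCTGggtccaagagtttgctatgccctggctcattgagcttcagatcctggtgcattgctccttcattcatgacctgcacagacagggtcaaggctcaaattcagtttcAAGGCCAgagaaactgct
Rnase1: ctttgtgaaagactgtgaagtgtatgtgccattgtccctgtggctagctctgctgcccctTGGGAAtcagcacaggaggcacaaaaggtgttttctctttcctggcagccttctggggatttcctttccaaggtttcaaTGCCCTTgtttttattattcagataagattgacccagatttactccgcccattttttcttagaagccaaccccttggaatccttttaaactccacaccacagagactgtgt
The E-box letters occur in the windows of *Gp2* and *Cuzd1*, 2 in each, and in 66.2% of the 32817 windows of this length in the table. TGGGAA or its reverse complement occurs once each in *Sycn*, *Gp2* and *Rnase1*, against 21.6% of all windows. AAGGNCA occurs at 2 places in *Sycn* and once each in *Cuzd1* and *Rnase1*, against 17.5% of all windows. No motif searched is present in all 4 windows, and a match in letters describes the sequence and is not a measured binding site. The window of *Chrm3*, which is not printed, holds none of the motifs. The printed windows were picked by the direction of their genes, so these counts are no test of the motifs.

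Set against the enzymes of the same section, the granule genes split. *Rnase1* gave 3.92, 3.26, 1.86 and 1.59 UMIs per 1000 enzyme UMIs, with means of 3.59 ± 0.467 and 1.73 ± 0.190 (SD, n = 2), a ratio of 2.08, and both *Ehmt2* fl/fl-labelled sections lay below both of the +/+ label. *Zg16* gave 16.3, 18.3, 13.5 and 12.5, a ratio of 1.33 without overlap. For these 2 genes the exact two-sided permutation test gave its smallest p of 0.333, and 0.13% of all genes had such a ratio lower in both *Ehmt2* fl/fl-labelled sections. That share is 26 genes, and 13 of the 28 enzyme genes tested were among them, while 12 enzyme genes were higher. The lower ratio is thus not particular to *Rnase1* and *Zg16*. The chymotrypsinogen gene *Ctrb1* alone made up 568, 576, 666 and 666 of each 1000 enzyme UMIs, so the scale is mostly that of 1 gene. *Sycn* gave 18.6, 28.2, 24.8 and 25.2 UMIs per 1000 enzyme UMIs, so its *Ehmt2* fl/fl values lay between the replicates of the +/+ label. *Gp2* gave 9.41, 5.61, 6.98 and 8.01, and *Cuzd1* gave 2.80, 3.65, 3.36 and 3.14, again with the *Ehmt2* fl/fl values between the other two. The group means of *Gp2* were 7.51 ± 2.69 and 7.50 ± 0.730 and those of *Cuzd1* 3.23 ± 0.601 and 3.25 ± 0.156 (SD, n = 2), differences smaller than the spread between replicates. For these 3 genes the direction turned with which +/+ section was left out. Without *Ehmt2* +/+ replicate 1 the log2 ratio of fl/fl over +/+ was −0.17 for *Sycn*, 0.42 for *Gp2* and −0.17 for *Cuzd1*, and without *Ehmt2* +/+ replicate 2 it was 0.43, −0.33 and 0.21. The sum of the 5 genes was 51.0, 59.0, 50.5 and 50.4 UMIs per 1000 enzyme UMIs.

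**Figure D2:**
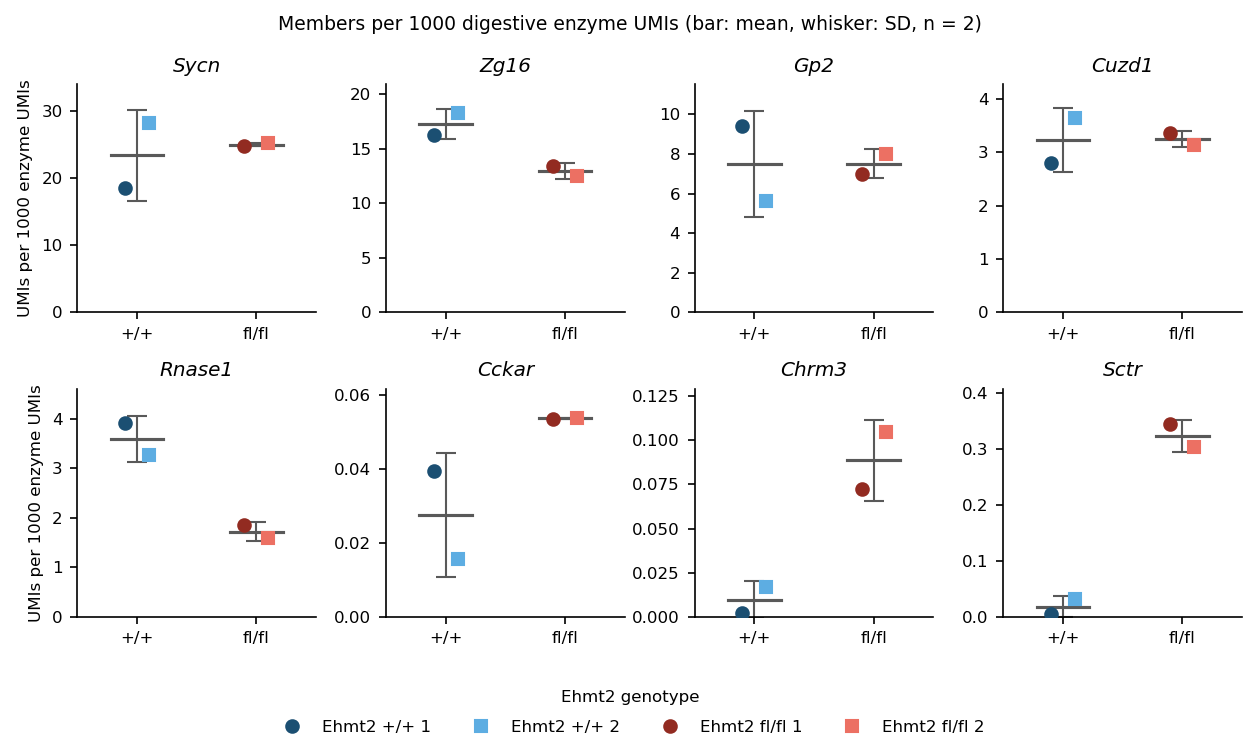
UMIs of each gene per 1000 UMIs of the digestive enzymes in each section by labelled *Ehmt2* genotype, on linear axes that start at 0, with the group mean as a bar and its SD as a whisker (n = 2). *Rnase1* and *Zg16* lie lower in both *Ehmt2* fl/fl-labelled sections, while for *Sycn*, *Gp2* and *Cuzd1* the *Ehmt2* fl/fl values lie between those of the *Ehmt2* +/+-labelled sections.

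In the make-up of the granule transcripts *Rnase1* and *Zg16* again stood lower under the fl/fl label. These are the same counts over another total and no further support. *Rnase1* was 7.69% and 5.53% of the UMIs of the 5 genes in the *Ehmt2* +/+-labelled sections and 3.68% and 3.16% under the fl/fl label. *Zg16* was 32.0% and 31.0% against 26.7% and 24.7%. *Sycn* was 36.4% and 47.8% against 49.2% and 50.0%, so its share was higher in both *Ehmt2* fl/fl-labelled sections, by a small margin over *Ehmt2* +/+ replicate 2. The shares of *Gp2* (18.4%, 9.51%, 13.8% and 15.9%) overlapped between the labels. *Cuzd1* held 5.49%, 6.19%, 6.66% and 6.23%, with both *Ehmt2* fl/fl-labelled sections at the upper end. These shares sum to a whole within each section, so that one gene's lower share raises the others. Each gene has its own probes, and these figures compare a gene between sections, not one gene's level with another's.

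The granule genes also reached fewer spots in the *Ehmt2* fl/fl-labelled sections. A UMI of *Sycn* was present in nearly every spot of the *Ehmt2* +/+-labelled replicate 1 (99.97%, 95% exact binomial interval 99.88 to 99.996) and in 97.1% (96.8 to 97.4) of *Ehmt2* +/+ replicate 2, against 85.8% (85.0 to 86.6) and 78.8% (77.9 to 79.7) under the fl/fl label. These intervals cover counting error only. Because depth differed between sections, the shares were also computed for spots of at least 500 UMIs, as the share expected when each is thinned to 500, which leaves 6144 and 7871 spots in the *Ehmt2* +/+-labelled sections and 6483 and 6462 under the fl/fl label. *Rnase1*, which marked 95.4%, 62.5%, 27.0% and 23.8% of spots before thinning, then marked 62.6%, 53.7%, 16.9% and 14.2%. Thinned shares of *Cuzd1* were 57.5%, 59.0%, 28.3% and 24.9%, and those of *Zg16* 98.9%, 97.2%, 68.0% and 61.3%. *Gp2* was found in 93.0%, 73.6%, 48.5% and 48.7% of thinned spots. At equal depth each of the 5 genes was thus found in fewer spots of both *Ehmt2* fl/fl-labelled sections. How many of all genes were found in fewer spots there was not counted. Listed spots outside the tissue held *Sycn* in 31.0%, 34.2%, 7.79% and 6.11% and *Rnase1* in 12.0%, 4.37%, 0.716% and 0.543%, at medians of 11 to 36 UMIs per spot.

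Granule transcripts were compared between spots rich and poor in enzyme transcripts within each section. Spots were ranked by their share of enzyme UMIs, and the 25% of spots with the highest share (enzyme-rich) were compared with the 25% with the lowest (enzyme-poor). Each gene's UMIs were scaled to the UMIs of all genes other than the enzymes, so that the enzymes do not enter the scale. *Sycn* was 1.34 and 3.28 times as high in the enzyme-rich spots in the *Ehmt2* +/+-labelled sections, and 6.84 and 10.8 times under the fl/fl label. The mean log2 ratio over the 4 sections was 2.09 ± 1.32 (SD) for *Sycn*, 2.17 ± 1.21 for *Zg16*, 2.01 ± 1.22 for *Gp2*, 1.91 ± 1.21 for *Cuzd1* and 2.20 ± 0.873 for *Rnase1*. All 5 ratios were above 0 in 4 of 4 sections (exact sign-flip permutation test over sections, two-sided p = 0.125, the smallest that 4 sections allow). How many of all genes had such ratios above 0 in every section was not counted. Scaled to all UMIs instead, the enzymes among them, *Cuzd1* was 0.973 times as high in the enzyme-rich spots of *Ehmt2* +/+ replicate 1 and *Sycn* 1.03 times, while the other ratios of the granule genes were above 1 in each section. The 4 values of each gene ran in the same order, lowest in *Ehmt2* +/+ replicate 1 and highest in *Ehmt2* fl/fl replicate 2. The spots compared themselves differed in the same order, as enzymes took 55.1% and 65.6% of UMIs in the enzyme-poor and enzyme-rich spots of *Ehmt2* +/+ replicate 1, 29.4% and 59.5% in *Ehmt2* +/+ replicate 2, 6.26% and 34.2% in *Ehmt2* fl/fl replicate 1 and 4.09% and 33.3% in *Ehmt2* fl/fl replicate 2. Their part in the size of the ratios was not tested. Enzyme-rich spots were also deeper in each section, with medians of 8796, 1105, 1157 and 1378 UMIs against 2420, 499, 690.5 and 630.0.

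**Figure D3:**
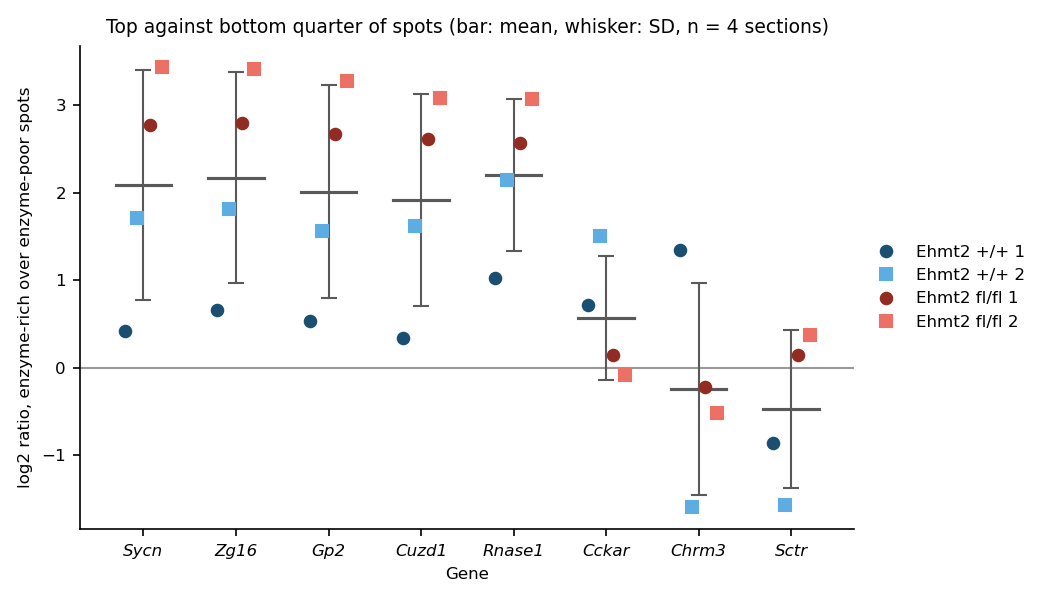
Log2 ratio of each gene's UMIs, scaled to the UMIs of all genes other than the enzymes, in the enzyme-rich over the enzyme-poor 25% of spots, 1 point per section, with the mean as a bar and the SD over 4 sections as a whisker. The granule genes lie above 0 in all 4 sections. *Cckar* lies among them in *Ehmt2* +/+ replicate 1, just below them in *Ehmt2* +/+ replicate 2 and near 0 under the fl/fl label. *Chrm3* and *Sctr* lie on both sides of 0.

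In spots of like enzyme content *Rnase1* and *Zg16* lay lower under the fl/fl label as well. These spots are part of those behind the section ratios per 1000 enzyme UMIs and give no independent support. The band from 25% to 50% enzyme UMIs is the one filled in all 4 sections, with 169, 4292, 2182 and 1992 spots. In it *Rnase1* gave 3.796, 2.82, 1.80 and 1.47 UMIs per 1000 enzyme UMIs and *Zg16* gave 16.6, 18.2, 13.1 and 12.5, without overlap between the labels. *Cuzd1* gave 3.48, 3.83, 3.25 and 2.92, also without overlap but with a narrow gap. *Sycn* (18.9, 29.4, 23.8 and 24.9) and *Gp2* (9.45, 5.87, 6.68 and 7.76) overlapped. How many of all genes lay without overlap in this band was not counted. Even within this band the enzymes took 42.7% and 41.8% of UMIs in the *Ehmt2* +/+-labelled sections and 32.7% and 33.2% under the fl/fl label. In the band of 10% to 25%, filled in 3 sections, *Rnase1* gave 2.84 in *Ehmt2* +/+ replicate 2 and 1.81 and 1.63 in the *Ehmt2* fl/fl-labelled sections. The band of 50% to 75% held only 36 and 37 spots under the fl/fl label, below the minimum of 100. There *Rnase1* gave 3.93, 3.43, 3.28 and 2.66, a narrower gap, and *Zg16* gave 16.3, 18.3, 14.0 and 12.2. The spots of a section share its library and depth and are no replicates, and no test was made across bands.

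**Figure D4:**
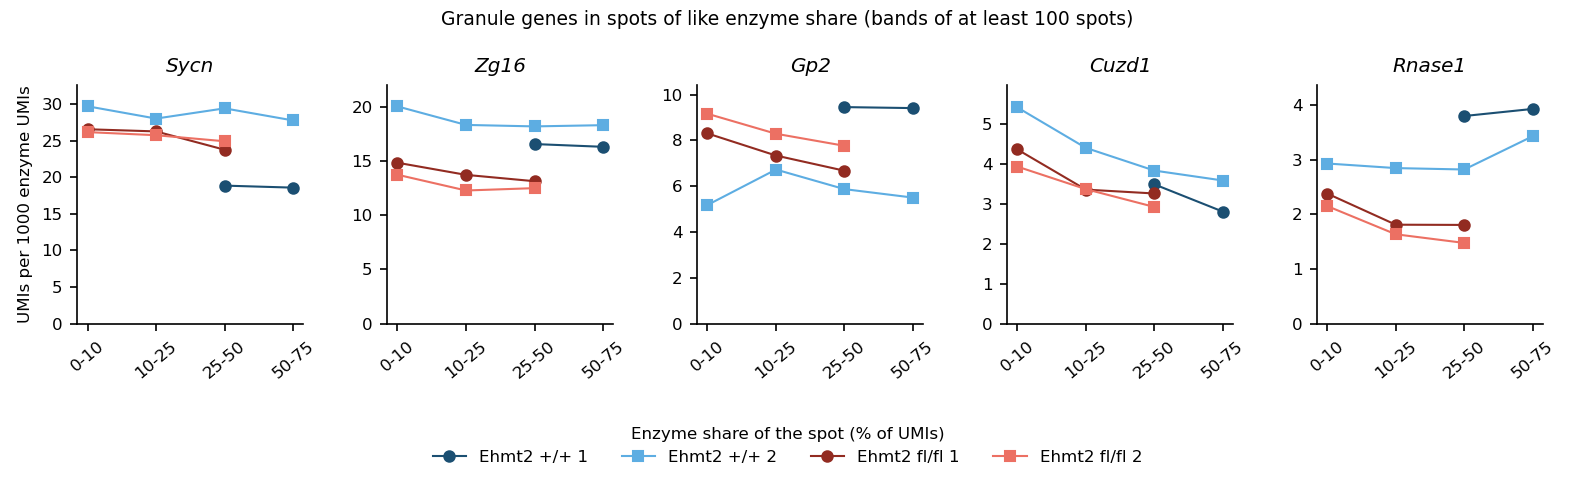
UMIs of the granule genes per 1000 enzyme UMIs in spots grouped by their share of enzyme UMIs (bands of at least 100 spots, linear axes that start at 0), 1 line per section. *Rnase1* and *Zg16* lie lower in both *Ehmt2* fl/fl-labelled sections in each band these share with a section labelled *Ehmt2* +/+, and in the band of 25% to 50% the *Sycn* and *Gp2* values of the *Ehmt2* +/+-labelled sections lie on both sides of them.

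The receptors were measured near the limit of the assay. *Cckar* had 1079, 69, 80 and 94 UMIs, *Chrm3* 60, 75, 108 and 183, and *Sctr* 131, 142, 513 and 530. In CPM *Cckar* measured 24.6, 7.93, 11.4 and 11.1, so the values of the fl/fl label lay between those of the +/+ label (exact two-sided permutation p = 1). *Chrm3* measured 1.37, 8.62, 15.4 and 21.5 CPM and *Sctr* 2.99, 16.3, 73.3 and 62.3 CPM, both higher in the *Ehmt2* fl/fl-labelled sections without overlap, as were 91.1% of all genes tested. The group means of *Sctr* were 9.66 ± 9.43 and 67.8 ± 7.73 CPM (SD, n = 2), a ratio of 7.02. For *Chrm3* they were 4.997 ± 5.13 and 18.5 ± 4.31 CPM, a ratio of 3.70. On the TMM scale 19.4% of genes were higher in both *Ehmt2* fl/fl-labelled sections, *Chrm3* and *Sctr* among them, with edgeR log2 fold changes of 0.52 (SE 0.891, adjusted p = 0.872) and 1.43 (SE 0.794, adjusted p = 0.872). *Cckar* had a log2 fold change of −2.99 (SE 0.858, edgeR adjusted p = 0.190). That estimate rested on the deep section, since it was −0.39 (edgeR adjusted p = 0.9998) without *Ehmt2* +/+ replicate 1 and −0.54 (adjusted p = 0.644) with library sizes in place of TMM.

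Olfactory receptor genes, which have no known use in the pancreas, give a measure of background counts. Their 1107 detected genes had a median of 0.251 CPM in the *Ehmt2* +/+-labelled replicate 1 and of 5.52, 8.43 and 12.9 CPM in the others, so the background moved with the labels and with depth. In *Ehmt2* +/+ replicate 1 all 3 receptors lay above every olfactory gene. In the shallower sections *Cckar* was matched or exceeded by 16.7%, 27.7% and 65.3% of the olfactory genes, and *Chrm3* by 11.1%, 8.22% and 5.69%, so both were within the background there. *Sctr* was exceeded by 0.181% of them in *Ehmt2* +/+ replicate 2 and by none in the *Ehmt2* fl/fl-labelled sections. Against the 95th percentile of the olfactory genes, 17.1 and 21.9 CPM in the *Ehmt2* fl/fl-labelled sections, *Sctr* stood at 73.3 and 62.3 CPM. The part of the background in the difference between labels was not tested.

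**Figure D5:**
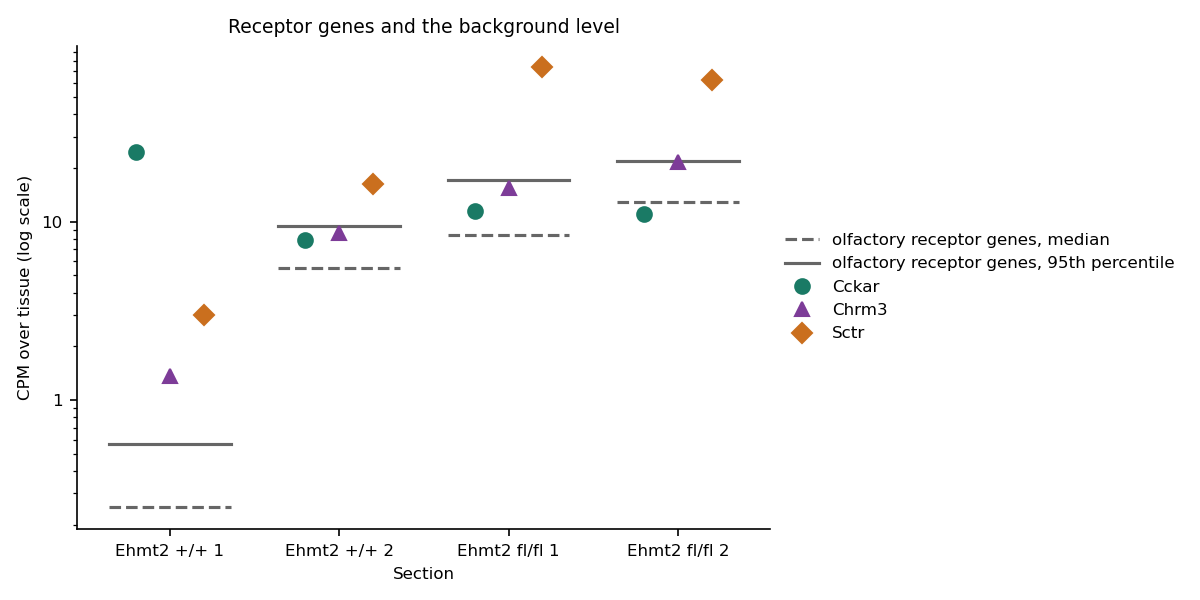
CPM over tissue of *Cckar*, *Chrm3* and *Sctr* in each section (log axis), with the median (dashed line) and the 95th percentile (solid line) of 1107 olfactory receptor genes. *Sctr* lies above the 95th percentile in all 4 sections, and *Cckar* and *Chrm3* only in *Ehmt2* +/+ replicate 1.

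Few spots held a receptor UMI. *Cckar* was found in 14.8% of spots in the *Ehmt2* +/+-labelled replicate 1 (95% exact binomial interval 13.9 to 15.7) and in 0.651%, 1.05% and 1.07% in the others. *Sctr* was found in 2.05%, 1.33%, 6.48% and 5.95% of spots and, with spots thinned to 500 UMIs, in 0.198%, 0.876%, 3.51% and 3.08%. Thinned shares of *Chrm3* were 0.0749%, 0.456%, 0.847% and 1.17%, in the order of its CPM, and those of *Cckar* were 1.15%, 0.386%, 0.584% and 0.540%. At equal depth *Sctr* therefore marked more spots in both *Ehmt2* fl/fl-labelled sections, while the *Cckar* shares overlapped. How many of all genes marked more spots there was not counted. With spots thinned to 500 UMIs of genes other than the enzymes, the *Cckar* shares did not overlap, at 2.96% and 0.970% in the *Ehmt2* +/+-labelled sections and 0.702% and 0.674% under the fl/fl label. This thinning kept 5549, 2587, 6019 and 5950 spots. The *Cckar* counts were within the olfactory background in the shallower sections, and no such count of overlap was made over all genes. Scaled to 1000000 UMIs of genes other than the enzymes, *Cckar* measured 65.4, 16.0, 14.5 and 13.9, also lower under the fl/fl label and by little against *Ehmt2* +/+ replicate 2. Outside the tissue no receptor exceeded 0.173% of spots in any section. Against the enzymes, *Sctr* gave 0.00480, 0.0324, 0.344 and 0.304 UMIs per 1000 enzyme UMIs, *Chrm3* 0.00220, 0.0171, 0.0725 and 0.105, and *Cckar* 0.0395, 0.0157, 0.0537 and 0.0539. All 3 were higher in both *Ehmt2* fl/fl-labelled sections on this scale, as were 99.4% of all genes tested, since its denominator was itself lower there. In the band of 25% to 50% enzyme UMIs *Sctr* gave 0.0126, 0.0581, 0.180 and 0.161 and *Cckar* 0.0567, 0.0185, 0.0282 and 0.0256. *Chrm3* had 0 UMIs there in *Ehmt2* +/+ replicate 1, which allows up to 0.0189 UMIs per 1000 enzyme UMIs, and 0.0308, 0.0331 and 0.0502 in the others. In that band of *Ehmt2* +/+ replicate 1 the *Sctr* value rests on 2 UMIs and lies below this bound. The *Cckar* value rests on 9 UMIs.

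Between enzyme-rich and enzyme-poor spots the receptors differed from each other. *Cckar* was 1.64 and 2.84 times as high in the enzyme-rich spots in the *Ehmt2* +/+-labelled sections, and 1.103 and 0.946 times under the fl/fl label, a mean log2 ratio of 0.57 ± 0.708 (SD, n = 4; exact sign-flip permutation p = 0.25). Its ratios lay among those of the granule genes in *Ehmt2* +/+ replicate 1, which ran from 1.27 to 2.03, and just below theirs in *Ehmt2* +/+ replicate 2, which ran from 2.95 to 4.43. Under the fl/fl label they lay near 1. The counts of *Cckar* were within the olfactory background there and in *Ehmt2* +/+ replicate 2 as well. In *Ehmt2* +/+ replicate 2 its ratio rested on 7 UMIs in the enzyme-poor and 26 in the enzyme-rich spots. *Chrm3* ran from 0.331 to 2.53 times, a mean log2 ratio of −0.25 ± 1.21, with 3 and 17 UMIs behind the highest value. *Sctr* was lower in the enzyme-rich spots in both *Ehmt2* +/+-labelled sections, at 0.549 and 0.338 times, and slightly higher in both of the fl/fl label, at 1.11 and 1.30 times. Scaled to all UMIs, the enzymes among them, *Sctr* was lower in the enzyme-rich spots of all 4 sections.

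By Pearson correlation of log(1 + UMIs per 10000) across spots with at least 500 UMIs, the genes most like each granule gene were secreted acinar products. Over 7450 genes ranked by the mean of the 4 sections, *Sycn* was most like *Ctrb1* (0.57), *Cela3b* (0.54) and *Ctrl* (0.52), which encode a chymotrypsinogen, an elastase and a chymotrypsin-like protease. *Zg16* was most like *Reg1* (0.48), *Ctrl* (0.48) and *Ctrb1* (0.47), and *Gp2* most like *Reg1* (0.37), *Cpa1* (0.35) and *2210010C04Rik* (0.35). *Rnase1* shared all 3 of those partners, *Reg1* (0.32), *Cpa1* (0.31) and *2210010C04Rik* (0.30), and *Cuzd1* was nearest to *Ctrb1* (0.27), *Cela2a* (0.25) and *Reg1* (0.25). Among the 10 pairs of granule genes the median correlation was 0.11 in *Ehmt2* +/+ replicate 1 and 0.22, 0.21 and 0.29 in the other sections. Its highest value was for *Sycn* and *Zg16* in *Ehmt2* fl/fl replicate 2 (0.51), and its lowest for *Sycn* and *Rnase1* in *Ehmt2* +/+ replicate 1 (−0.05). The nearest genes of the receptors reached mean correlations of only 0.03 for *Cckar* (*Cpa1*, *Snrpe* and *Cel*) and *Chrm3* (*Ctxn1*, *Syne3* and *Commd5*), and 0.04, 0.04 and 0.03 for *Sctr* (*Timp3*, *Smim41* and *Spp1*). At the counts of the receptors such values carry little, and spots of a section share its library, depth and composition.

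Genes of the same pathways were taken from lists, and edgeR called no gene of them. The median log2 fold change was −3.88 over the 28 enzyme genes tested, close to the −3.83 of the granule genes, against 0.25 over all genes. At an unadjusted edgeR p under 0.05 there were 11 enzyme genes and 7 of the 9 acinar transcription factors, against 5.01% of all genes, and DESeq2 called 20 and 3 of them, against 2% of all genes. DESeq2 gave no adjusted p for 4 of the 28 enzyme genes and 6 of the 9 factors, which could thus not be called. *Ctrb1*, the enzyme gene with the most UMIs, measured 354283, 290222, 141826 and 136597 CPM, *Cela2a* 68991, 61272, 7647 and 6729 CPM, and *Cela3b* 42746, 35702, 11014 and 10097 CPM. All 9 acinar transcription factors had log2 fold changes below 0, against 8795 of all 20066 genes, with a median of −2.01. In CPM 3 were lower and 2 higher in both *Ehmt2* fl/fl-labelled sections, against 0.767% and 91.1% of all genes. *Rbpjl*, a partner of Ptf1a in the acinar transcription complex, measured 95.2, 51.6, 16.4 and 12.2 CPM (log2 fold change −4.65, edgeR adjusted p = 0.0570), which makes it the gene of these lists nearest to a call. *Xbp1*, a regulator of the secretory pathway, measured 401.9, 231, 152 and 140 CPM.

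Of the 22 genes of granule traffic and exocytosis, 19 had a log2 fold change below 0, against 8795 of all 20066 genes, and the median was −0.93. By edgeR 3 of the 22 had an unadjusted p under 0.05, against 5.01% of all genes, and DESeq2 called 4, against 2%. DESeq2 gave no adjusted p for 12 of the 22. In CPM 18 of the 22 were higher in both *Ehmt2* fl/fl-labelled sections, against 91.1% of all genes. *Dmbt1*, a scavenger receptor-like glycoprotein, measured 2886, 556, 311 and 199.97 CPM, while *Stxbp2*, a partner of syntaxins, measured 191, 269, 350 and 311 CPM and *Tpd52*, a granule-associated protein, 215, 202, 338 and 296 CPM. The 19 genes of calcium signalling downstream of Gq had a median of −0.42 and 3 with an unadjusted p under 0.05, with *Atp2a2*, the calcium pump of the endoplasmic reticulum, at 177, 173, 507 and 511 CPM. *Ppp3ca*, a calcineurin subunit, measured 73.2, 64.7, 156 and 139 CPM and the store-operated channel *Orai1* 28.3, 39.0, 88.3 and 85.6 CPM. Of this list 17 genes had a higher CPM in both *Ehmt2* fl/fl-labelled sections, a share like that of all genes. The 14 tested genes of cAMP and ductal secretion had a median of −0.25 and none with an unadjusted p under 0.05. Like 91.1% of all genes, all 14 had a higher CPM in both *Ehmt2* fl/fl-labelled sections. Among them *Car2*, a carbonic anhydrase of duct cells, measured 6.598, 13.9, 86.8 and 112 CPM, *Prkar1a* 224, 299, 593 and 453 CPM and *Gnas* 238, 224, 295 and 301 CPM. The 17 tested related receptors and ligands had a median of 0.67 and 1 with an unadjusted p under 0.05, with *Adcyap1r1* at 13.5, 45.6, 54.4 and 59.4 CPM, *Insr* at 6.76, 15.2, 23.6 and 30.8 CPM and *Chrm1* at 1.35, 13.6, 27.6 and 27.3 CPM.

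Markers of other cell types moved with the labels as well, and 91.1% of all genes tested had a higher CPM in both *Ehmt2* fl/fl-labelled sections. The summed CPM of 9 duct markers, among which are *Epcam*, *Spp1* and *Anxa4*, was 1112 and 1668 in the *Ehmt2* +/+-labelled sections and 3384 and 2723 under the fl/fl label. It was 430 and 640.1 against 2172 and 2044 for 7 fibroblast markers, 12.8 and 48.5 against 143 and 118 for 6 smooth muscle markers, and 41.8 and 127 against 380 and 439.9 for 5 fat markers. The duct markers did not all move with their sum. In CPM 8 of the 9 were higher in both *Ehmt2* fl/fl-labelled sections and 1 was lower, *Krt19*, at 167, 259, 162 and 130 CPM. Macrophage markers summed to 62.9 and 118 against 661 and 492 CPM, neutrophil markers to 2.90 and 33.6 against 116.6 and 117.2, and lymphoid markers to 3.74 and 71.5 against 172 and 170. Some genes of these lists lay below the 95th percentile of the olfactory genes under the fl/fl label, 17.1 and 21.9 CPM, and others above it. The part of background counts in the sums was not tested. Islet markers summed to 1144, 874, 6477 and 929 CPM, with the first fl/fl section alone far higher, and blood markers to 58.8, 44.8, 91.8 and 181, with 1 of 5 genes at 0 in every section. On the TMM scale the median log2 fold change was −0.67 for duct, −0.09 for fibroblast, −0.85 for islet and −0.74 for blood markers, and between 0.44 and 1.42 for the other 5 of these lists. No gene of the other marker lists was at 0 in any section, while 5 of the enzyme genes were at 0 in every section. Their part in the lower level of the granule genes and the higher level of *Sctr* was not tested.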

How the data were processed

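Sections of 4 caerulein-treated mice were profiled with the CytAssist Visium assay. The authors counted probe reads with Space Ranger 2.0.1 (version per the file headers) on the mm10 reference with a mouse probe set, and deposited raw UMI counts, which are whole numbers, for 32589 features in every listed spot. Deprecated probes were left out, and they held between 0.477% and 0.803% of the UMIs of a section. The deposited tissue marks carry no barcodes, so spots over tissue were taken as those above the valley between the 2 highest modes of each section's distribution of log10(UMIs + 1), binned at 0.05 and smoothed over 3 bins. These spots held 98.0% to 98.9% of a section's UMIs. The section was the replicate throughout, and with 2 mice per label p-values rest on the spread between these sections only.

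Counts summed over tissue were tested with edgeR 4.0.16 in R 4.3.3 (TMM, filterByExpr with a minimum count of 10, quasi-likelihood test, Benjamini-Hochberg over all genes tested, threshold 0.05), with genotype as the only factor. DESeq2 1.42.0 and other normalizations, filters, spots and left-out sections were alternatives. Common dispersion was 0.362, and TMM factors were 0.282, 0.995, 1.69 and 2.11. The edgeR steps were tested on simulated data. Two-sided exact permutation tests over sections were run for single values in Python 3.11.15 with scipy 1.17.1. Positions come from GENCODE vM21 and promoter sequences from RefSeq, both on GRCm38, the build of the files. A count of 0 was taken to allow 3 counts.

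The members and gene lists were chosen with earlier results of these data known. Named are the 8 members, *Ehmt2*, 4 Y-linked genes, for each list the 3 genes of highest mean CPM and any gene called, and for each member the 3 genes most like it across spots, among genes with a UMI in at least 1% of spots with 500 UMIs in every section. *Krt19* is named besides, as the duct marker that was lower in CPM. For the marker lists sums stand for single genes. A gene that this rule names among the acinar transcription factors is not reported here. The lists were digestive enzymes, granule traffic and exocytosis, calcium signalling downstream of Gq, cAMP and ductal secretion, related receptors and ligands, acinar transcription factors, and markers of duct, islet, fibroblast, smooth muscle, macrophage, neutrophil, lymphoid, fat and blood cells.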

Additional observations from a re-analysis of the deposited data

Results flagged for a closer look

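*Sctr* moved in opposite directions between the labels when enzyme-rich and enzyme-poor spots were compared. Its log2 ratio of the enzyme-rich over the enzyme-poor 25% of spots was −0.87 and −1.56 in the *Ehmt2* +/+-labelled sections and 0.15 and 0.38 under the fl/fl label, a difference of 1.48 between the group means. The difference was not tested beyond the exact permutation test, which with 2 sections against 2 cannot go below p = 0.333. The values rest on 22 and 52 UMIs in the enzyme-poor spots and 27 and 23 in the enzyme-rich spots of the *Ehmt2* +/+-labelled sections. The *Ehmt2* fl/fl-labelled sections held 107 and 88 UMIs in the enzyme-poor and 133 and 163 in the enzyme-rich spots. Scaled to all UMIs, the enzymes among them, the ratio was below 0 in all 4 sections.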

How the results depend on the processing

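No gene of the 8 changed the sign of its edgeR log2 fold change under any of the 12 alternatives, while the number called did change. It was 0 of 8 by edgeR as designed, with library sizes alone, with upper-quartile normalization, with the enzymes left out of the library sizes, without the filter on low counts and with each other choice of spots, and it was 5 by DESeq2. Leaving out single sections gave between 0 and 8 genes called, with 1 without *Ehmt2* +/+ replicate 1 and 8 without *Ehmt2* +/+ replicate 2, where the lone section of a label is assumed to vary like the other label. Over all genes the count called was 19 as designed, 401 by DESeq2, 195 with library sizes alone, 3 with upper-quartile normalization, and 356, 16701, 2 and 0 without each section in turn. The cause was not tested. The median log2 fold change of all genes was 0.25 with TMM, 1.64 with library sizes alone, 0.54 with upper-quartile normalization and −0.04 by DESeq2. In CPM 91.1% of all genes were higher and 0.767% lower under the fl/fl label without overlap, so a lack of overlap is common among all genes. Of the 8, genes without overlap between the labels numbered 7 in CPM and in shares of spots, and 7 or 8 under every alternative. For shares of spots no such count was made over all genes. Per 1000 enzyme UMIs they numbered 5, and between 5 and 8 without single sections, where 99.4% of all genes were higher and 0.13% lower under the fl/fl label. Genes higher in the enzyme-rich spots of all sections numbered 5, and between 4 and 6 under the alternatives. For this comparison too no count was made over all genes. No paired analysis was possible because the labels carry no replicate numbers, and those used here follow sample order and pair nothing. Depth limits the receptors most, since the 3 shallower sections hold 69 to 530 UMIs of each.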
